A study of Danio rerio with 10 samples.

Results

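The skeletal muscle acetylcholine receptor and the proteins that anchor it at the endplate are encoded by a small set of genes, and 9 of them were examined here: *chrna1*, *chrnb1*, *chrnb1l*, *chrnd*, *chrne*, *chrng*, *musk*, *rapsn* and *dok7*. The set was chosen by gene symbol with earlier results of these data in view, among them the measured rise of *chrng* in morphants over mutants. Each gene was represented by the probe set whose annotation held its symbol alone, and by the brightest on average over the arrays where there were several. 8 of the 9 genes had such a probe set, 1 each, among 19260 genes and 75212 probe sets in all, while none carried the symbol *dok7*. RNA was measured in whole zebrafish embryos at 48 hpf that had been raised at 28.5 degrees. *islet2a* morphants (n = 3) were wildtype embryos injected with the morpholino T-MO, which blocks translation of *islet2a*, a transcription factor gene of motor and sensory neurons, and *islet2a* mutants (n = 3) were homozygous for a TALEN-made frameshift deletion in its coding sequence. The controls (n = 4) were uninjected wildtype embryos (n = 2) and homozygous wildtype siblings of the mutants (n = 2). None of the 10 arrays was labelled as embryos given a control morpholino. In the morphants, effects of the injection or of a morpholino as such therefore cannot be told apart from those of the *islet2a* block. The titles of the sibling arrays read mock control, while their description and source name give wildtype siblings, and the comparisons with a manipulation's own wildtype rest on these. Each sample was a pool of embryos, neither the morpholino nor the deletion was confined to a tissue, and all mutants carried a single allele.

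The muscle receptor is a pentameric cation channel that opens when the motor nerve releases acetylcholine. It is built from α, β and δ subunits together with a γ subunit in the embryonic form or an ε subunit in the adult form. At the endplate, the receptor tyrosine kinase MuSK is activated by nerve-derived agrin through Lrp4, Dok7 acts as its cytoplasmic partner, and rapsyn ties the receptors into dense clusters. In whole embryos these transcripts come from a tissue that is mixed with all others, so that fewer cells of a type and less RNA per cell cannot be told apart.

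The deposited values were log2 signals, on which 1 unit is a 2-fold change. Since each probe set responds to its target with its own strength, levels were compared between arrays and not between genes. Array medians ran between 4.92 and 4.96, and Pearson's r over all probe sets, which are not independent replicates, was 0.983 to 0.992 between arrays of 1 group and 0.972 to 0.988 between arrays of different groups. The *isl2a* signal itself was 9.79 to 9.96 in morphants and 8.95 to 9.13 in mutants, against 8.51 to 8.61 in controls. Neither manipulation lowered this transcript, and a block of translation need not do so. Whether these pools were drawn from different clutches is not stated, and the p-values reflect no more than the variation among them.

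The γ subunit gene *chrng* showed the widest range of the 8 genes. Its log2 signal was 7.06, 6.99 and 6.52 in the 3 morphant arrays, against 3.84, 4.08 and 3.88 in mutants, 3.70 and 3.62 in uninjected wildtype and 4.09 and 3.89 in sibling wildtype. All 3 morphant arrays lay above the array medians and all 7 others lay below them, and the mutant arrays overlapped the controls. The log2 fold change of morphants against controls was 3.04 (standard error 0.15, 95% confidence interval 2.69 to 3.38, adjusted p = 1.44e-05 from limma). Since the control and mutant signals of this gene lay below the array medians, where small differences are poorly resolved, the size of the change is not exact. A second probe set, whose 2 annotation entries both read *chrng*, showed a smaller change of 2.19 in morphants against controls. On the probe set used here, morphants exceeded mutants by 2.92 on the log2 scale (standard error 0.17). Because that rise was among the values in view when the set was chosen, that difference is a description, and the p-value against controls, which rests on the same morphant arrays, is not independent of it. In mutants against controls the log2 fold change was 0.11 (95% confidence interval -0.23 to 0.46, adjusted p = 0.816).

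The ε subunit gene *chrne*, whose product replaces γ in the adult receptor, had values of 8.29, 8.29 and 8.51 in morphants, 8.25, 8.16 and 7.96 in mutants, 8.36 and 8.19 in uninjected wildtype and 8.05 and 8.21 in sibling wildtype. Morphant and control arrays overlapped. The log2 fold change of morphants against controls was 0.16 (95% confidence interval -0.08 to 0.40, adjusted p = 0.473 from limma), and that of mutants against controls was -0.08 (-0.32 to 0.16, adjusted p = 0.808). The difference between the *chrng* and *chrne* signals within an array, which compares arrays and not the amounts of the transcripts, was -1.23, -1.30 and -1.99 in morphants, -4.41, -4.08 and -4.07 in mutants and -4.66 to -3.96 in controls. These differences restate the values of *chrng*, since *chrne* varied less.

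**Figure D1:**
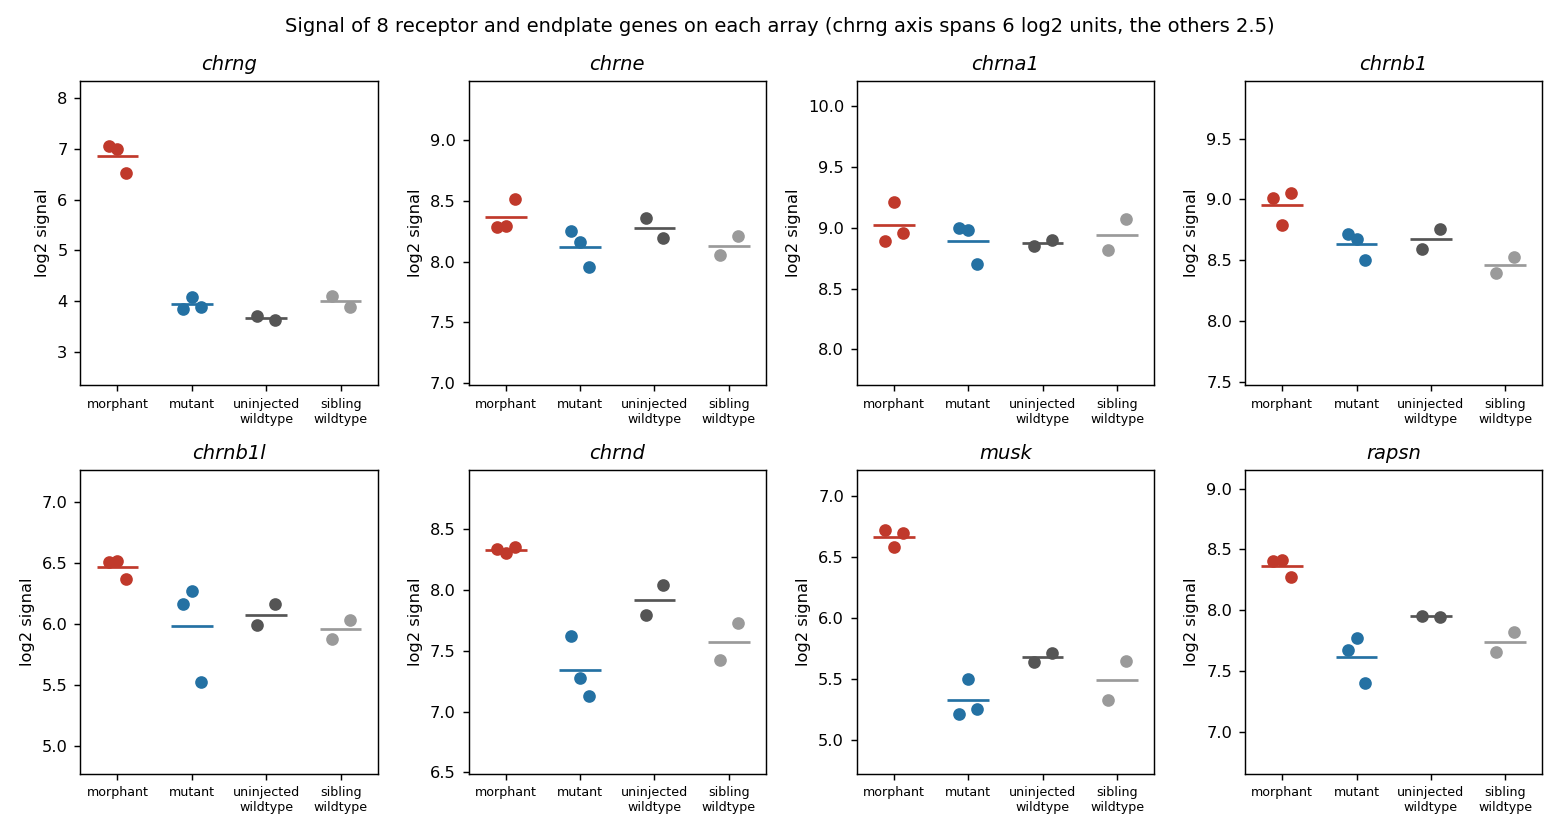
Log2 signal of the 8 measured receptor and endplate genes (vertical axes) in morphants, mutants, uninjected wildtype and sibling wildtype embryos, with 1 point per array and a bar at each group mean. The *chrng* points of morphants (6.52 to 7.06) stand apart from all others (3.62 to 4.09), *musk*, *rapsn* and *chrnd* show smaller gaps between morphants and mutants, and *chrna1* overlaps in all groups.

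Among the subunits shared by both receptor forms, the α subunit gene *chrna1*, which carries the main part of the acetylcholine binding site, had 8.89, 9.21 and 8.96 in morphants, 8.997, 8.98 and 8.70 in mutants, 8.85 and 8.90 in uninjected wildtype and 8.82 and 9.07 in sibling wildtype. The groups overlapped, and the log2 fold change of morphants against controls was 0.11 (95% confidence interval -0.14 to 0.37, adjusted p = 0.670 from limma). The interval excludes a doubling of this signal but not a small change.

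The δ subunit gene *chrnd* had 8.33, 8.30 and 8.35 in morphants, 7.62, 7.28 and 7.12 in mutants, 7.79 and 8.04 in uninjected wildtype and 7.42 and 7.73 in sibling wildtype. Every morphant array lay above every other array, and the mutant with the highest value lay within the range of the controls. Morphants exceeded mutants by 0.99 (standard error 0.16, adjusted p = 0.00412 from limma). Against controls the log2 fold change of morphants was 0.58 (95% confidence interval 0.25 to 0.92), which did not pass (adjusted p = 0.0567 from limma). It did so without uninjected replicate 2 (0.0298), without mutant replicate 1 (0.0437) and against sibling wildtype alone (0.0436). Other settings in which *chrnd* passed included a trended and robust prior (0.0495) and identical probe sets counted once (0.0428). The log2 fold change of mutants against controls was -0.40 (-0.74 to -0.07, adjusted p = 0.281).

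The β subunit gene *chrnb1* had 9.01, 8.79 and 9.06 in morphants, 8.71, 8.68 and 8.50 in mutants, 8.59 and 8.75 in uninjected wildtype and 8.39 and 8.52 in sibling wildtype. Morphants lay above all other arrays, by a narrow gap to the nearest control. The log2 fold change was 0.39 against controls (adjusted p = 0.0760 from limma) and 0.32 against mutants (adjusted p = 0.103). Its neighbour in the RefSeq assembly GRCz12tu, *chrnb1l*, a second β-like subunit gene, had 6.51, 6.52 and 6.37 in morphants, 6.16, 6.27 and 5.52 in mutants, 5.99 and 6.16 in uninjected wildtype and 5.88 and 6.03 in sibling wildtype. Mutant replicate 3 lay apart from both other mutants in this gene. Its log2 fold change was 0.45 in morphants against controls (adjusted p = 0.161 from limma) and 0.48 against mutants (adjusted p = 0.1000). Without mutant replicate 3, which left the change against controls as it was and narrowed the shared spread, the adjusted p against controls was 0.0320. With limma on the 2 groups alone it was 0.0497.

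Of the clustering genes, *musk*, which encodes the kinase that receives the nerve signal, had 6.73, 6.59 and 6.70 in morphants, 5.21, 5.50 and 5.25 in mutants, 5.64 and 5.72 in uninjected wildtype and 5.33 and 5.65 in sibling wildtype. The morphant arrays stood clear of all others, and the mutant arrays lay below both uninjected arrays but overlapped the siblings. The log2 fold change was 1.09 in morphants against controls (standard error 0.11, 95% confidence interval 0.84 to 1.34, adjusted p = 0.000802 from limma), a 2.13-fold higher signal. Against mutants it was 1.35 (standard error 0.12, adjusted p = 0.000257), or 2.55-fold. Mutants differed from controls by -0.26 (-0.51 to -0.01, adjusted p = 0.358), which did not pass.

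The rapsyn gene *rapsn* had 8.41, 8.41 and 8.27 in morphants, 7.67, 7.77 and 7.40 in mutants, 7.96 and 7.95 in uninjected wildtype and 7.66 and 7.82 in sibling wildtype. All morphant arrays were above all others, and all mutant arrays were below both uninjected arrays and overlapped the siblings. *rapsn* was higher in morphants than in controls by 0.52 (standard error 0.11, adjusted p = 0.0262 from limma) and higher than in mutants by 0.75 (standard error 0.12, adjusted p = 0.00356). The call against controls was lost on leaving out any 1 of the morphant or sibling arrays (adjusted p 0.0527 to 0.105), against uninjected wildtype alone (0.160) and in the 2-group test of the methods (0.0834), while the change stayed between 0.41 and 0.56. In mutants against controls the log2 fold change was -0.23 (adjusted p = 0.408). For *dok7*, the annotation lists a pair of zebrafish genes instead. *dok7b* had 6.98, 6.61 and 6.67 in morphants, 6.35, 6.26 and 6.05 in mutants, 6.31 and 6.47 in uninjected wildtype and 6.30 and 6.29 in sibling wildtype, so that every morphant array was above every other. It was higher in morphants than in mutants (log2 fold change 0.53, adjusted p = 0.0181 from limma, 0.0633 without morphant replicate 1 and 0.0692 without mutant replicate 3) and did not pass against controls (0.41, adjusted p = 0.0724). *dok7a* differed by 0.03 in morphants against controls (adjusted p = 0.932).

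With *chrng* left out as the gene whose rise was in view at the choice, the other 7 genes all had a positive log2 fold change in morphants against controls, between 0.11 and 1.09 with a median of 0.45, where the median over all probe sets was -0.02. 2 of the 7 passed an adjusted p of 0.05, both higher in morphants (*musk* and *rapsn*), against 3.59% of all probe sets (1.57% were lower), and *musk* was also changed by at least 2-fold, against 0.670%. In 5 of the 7 genes every morphant array lay above every control array, which held for 9.18% of all probe sets. Since the set was chosen with earlier results of these data in view, leaving out *chrng* does not make the other 7 an independent sample. The counts of this paragraph are therefore descriptions. In mutants against controls, 0 of the 8 genes passed in limma (0.338% of all probe sets passed). At an unadjusted p below 0.05 *chrnd* and *musk* were lower, a cutoff for which the share of all probe sets was not computed. The 2-group test of the methods, an analysis of variance, also passed 0. The 8 changes in mutants ran between -0.40 and 0.11 with a median of -0.06, and 6 were negative. Both comparisons used the same control arrays. Between morphants and mutants directly, 6 of the 7 genes other than *chrng* had all morphant arrays above all mutant arrays (16.4% of all probe sets), and 3 of the 7 passed, *musk*, *chrnd* and *rapsn*, where 7.50% of all probe sets passed as higher and 6.11% as lower. *chrnb1*, *chrnb1l* and *chrne* did not overlap between these groups but did not pass (adjusted p 0.1000 to 0.202 from limma). In the exact permutation test of single genes, the smallest two-sided p is 0.0571 for 3 arrays against 4 and 0.1 for 3 against 3. In morphants against controls the exact permutation p was 0.4 for *chrna1*, 0.171 for *chrne* and this smallest value for the other 6 genes, *chrng* among them, and the design cannot reach 0.05. For *chrng* this value is not independent of the choice of the set.

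**Figure D2:**
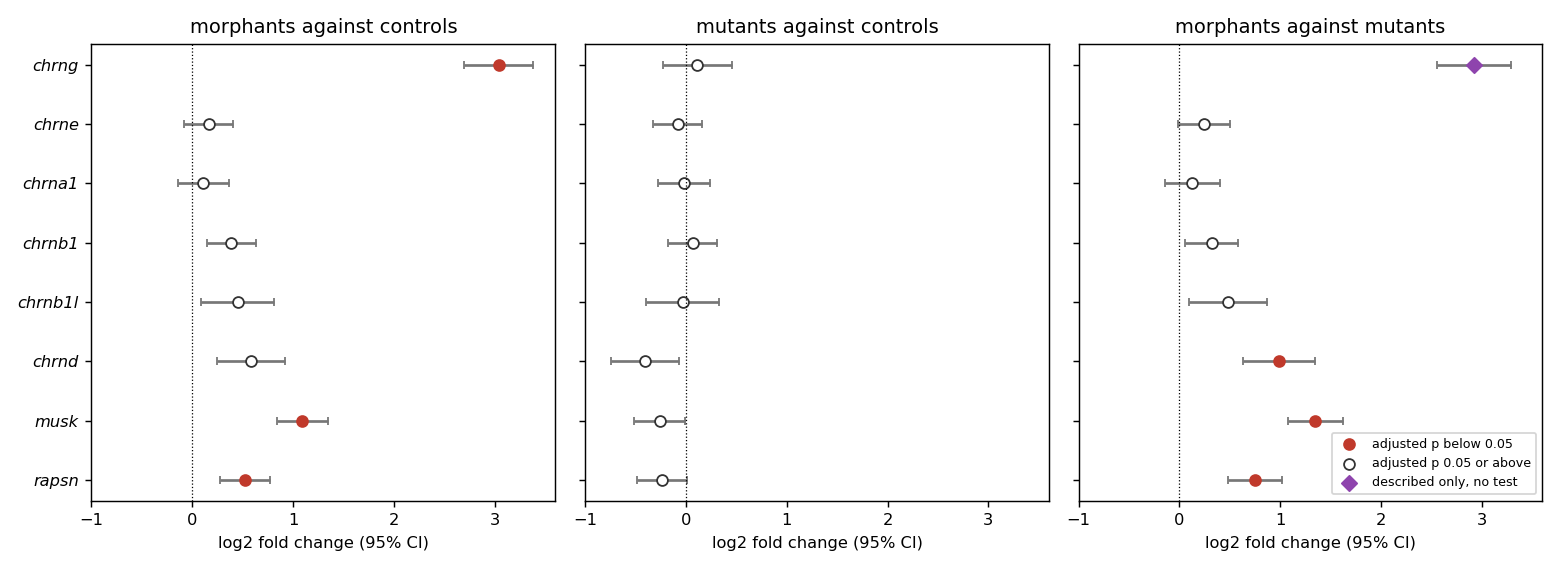
Log2 fold change of each gene (horizontal axes) with its 95% confidence interval from limma in morphants against controls, mutants against controls and morphants against mutants; filled circles have an adjusted p below 0.05 and the diamond is described without a test. In morphants against controls *chrng* (3.04), *musk* (1.09) and *rapsn* (0.52) are filled, and in mutants against controls no gene is. The filled *chrng* result is not independent of the choice of the set.

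Each manipulation was also set against its own wildtype, so that no control array was shared. *musk* was higher in morphants than in uninjected wildtype by 0.99 (adjusted p = 0.00799 from limma), whereas mutants differed from sibling wildtype by -0.17 (adjusted p = 0.742), and the difference between these changes, 1.16 (standard error 0.18), had an adjusted p of 0.0314. This call was lost on leaving out any of 8 of the 10 arrays in turn (adjusted p 0.0544 to 0.108), all but sibling replicate 1 and mutant replicate 2. For *chrng* the changes were 3.20 and -0.05, with a difference of 3.26 (standard error 0.23), given as a description. The differences of *chrnd* (0.65, adjusted p = 0.214) and *rapsn* (0.54, adjusted p = 0.188) were positive and did not pass, and those of the other 4 genes were 0.09 to 0.36. Of the 7 genes other than *chrng*, 1 thus passed, and over all probe sets 0.622% passed as higher in this comparison. Uninjected and sibling wildtype did not differ in any of the 8 genes at an adjusted p of 0.05 in limma (0 also at an unadjusted p below 0.05, and 0.0319% of all probe sets passed), with *chrng* at -0.33 and *chrnd* at 0.34 the farthest apart.

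The measured genes of the wider endplate pathway were followed as lists. Like the members, these lists and those of the paragraphs below were chosen with earlier results of these data known. Their counts beside the shares of all probe sets are therefore descriptions. Of 12 genes of the MuSK pathway and synaptic cleft, 0 passed in morphants against controls by limma (4 were higher at an unadjusted p below 0.05, and 1 passed without uninjected replicate 2), with a median change of 0.15. In this list *agrn*, the nerve-derived ligand, differed by 0.27 (adjusted p = 0.231), *lamb2*, a laminin of the synaptic basal lamina, by 0.28 (adjusted p = 0.148), and *ache*, which breaks down acetylcholine, by -0.16 (adjusted p = 0.516). Against mutants, 3 of the 12 passed as higher, where 7.50% of all probe sets did. These were *wnt11f2*, a Wnt ligand (0.69), *dok7b* (0.53) and *lamb2* (0.41). The count was 0 without morphant replicate 1 or mutant replicate 3 and 1 without mutant replicate 2. *lamb2* lost this call without any 1 morphant array or without mutant replicate 2 or 3 (adjusted p up to 0.102), and *wnt11f2* without morphant replicate 1 or mutant replicate 2 or 3 (up to 0.0654).

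Of 12 genes of the sarcolemma scaffold, *dmd*, the dystrophin gene, rose in morphants over controls by 0.50 (adjusted p = 0.0381 from limma), a call that survived the removal of uninjected replicate 2 or mutant replicate 3 but of no other array (largest adjusted p 0.134). Against mutants 4 of the 12 were higher, where 7.50% of all probe sets passed as higher. Among them were *cav3*, the muscle caveolin (0.55, adjusted p = 0.00463 from limma), and *dag1*, dystroglycan (0.40, adjusted p = 0.00765). With single arrays left out 2 to 5 passed, the lowest count arising without morphant replicate 1 or 2 or any 1 mutant array. Of 21 genes of excitation-contraction coupling, 1 was higher and 1 lower in morphants than in controls. Among all probe sets 3.59% passed as higher and 1.57% as lower. The higher gene was *cacng6a*, a calcium channel subunit (0.50, adjusted p = 0.0363 from limma). Its call was lost on leaving out any array but morphant replicate 3 and mutant replicates 2 and 3 (up to 0.148). *scn4aa*, a muscle sodium channel gene, was lower (-0.46, adjusted p = 0.0207), but not without morphant replicate 1 (0.0935) or 3 (0.0778) or sibling replicate 2 (0.0542). The *scn4aa* signals of 3.83 to 4.03 in morphants and 4.30 to 4.43 in controls were below the array medians. Against mutants 4 of the 21 were higher and 1 was lower, where 7.50% of all probe sets passed as higher and 6.11% as lower. The number passing was 1 without morphant replicate 1 or mutant replicate 3 and 3 without morphant replicate 2 or 3 or mutant replicate 1 or 2.

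The list of 16 myogenic factors held transcription factors of muscle together with broadly acting partners and repressors of these. It too was chosen with earlier results of these data known, and its counts are descriptions. Of the 16, 5 were higher and 0 lower in morphants than in controls, where 3.59% of all probe sets passed as higher. The count fell on leaving out any single array, to 2 without morphant replicate 2, to 3 without morphant replicate 1 or 3, mutant replicate 2, uninjected replicate 1 or either sibling array, and to 4 without any other. *myf5*, which acts early in muscle precursors, had 7.41, 7.40 and 7.14 in morphants, against 6.18 and 6.71 in uninjected and 6.003 and 6.37 in sibling wildtype, a rise of 1.00 (standard error 0.15; limma, adjusted p = 0.00528). *myod1* had 9.37, 9.54 and 9.40 in morphants, against 8.42 and 8.86 in uninjected and 8.29 and 8.90 in sibling wildtype (0.82, adjusted p = 0.0128, 0.0543 without morphant replicate 2), and *myog*, which acts in differentiation, rose by 0.56 (adjusted p = 0.0121, 0.156 as the mean of its probe sets). The morphant arrays were above all controls in both *myf5* and *myod1*. Against mutants, 6 of the 16 were higher, led by *myf5* (1.403) and *myod1* (1.01), beside 7.50% of all probe sets, a count of 2 without morphant replicate 3, 3 without morphant replicate 1 or mutant replicate 3 and 4 to 6 otherwise. In mutants against controls, 0 genes of these 4 lists passed in limma, and at an unadjusted p below 0.05 the numbers higher and lower were 0 and 0 for the MuSK pathway, 1 and 2 for the scaffold, 0 and 1 for excitation-contraction coupling and 1 and 2 for the myogenic factors.

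**Figure D3:**
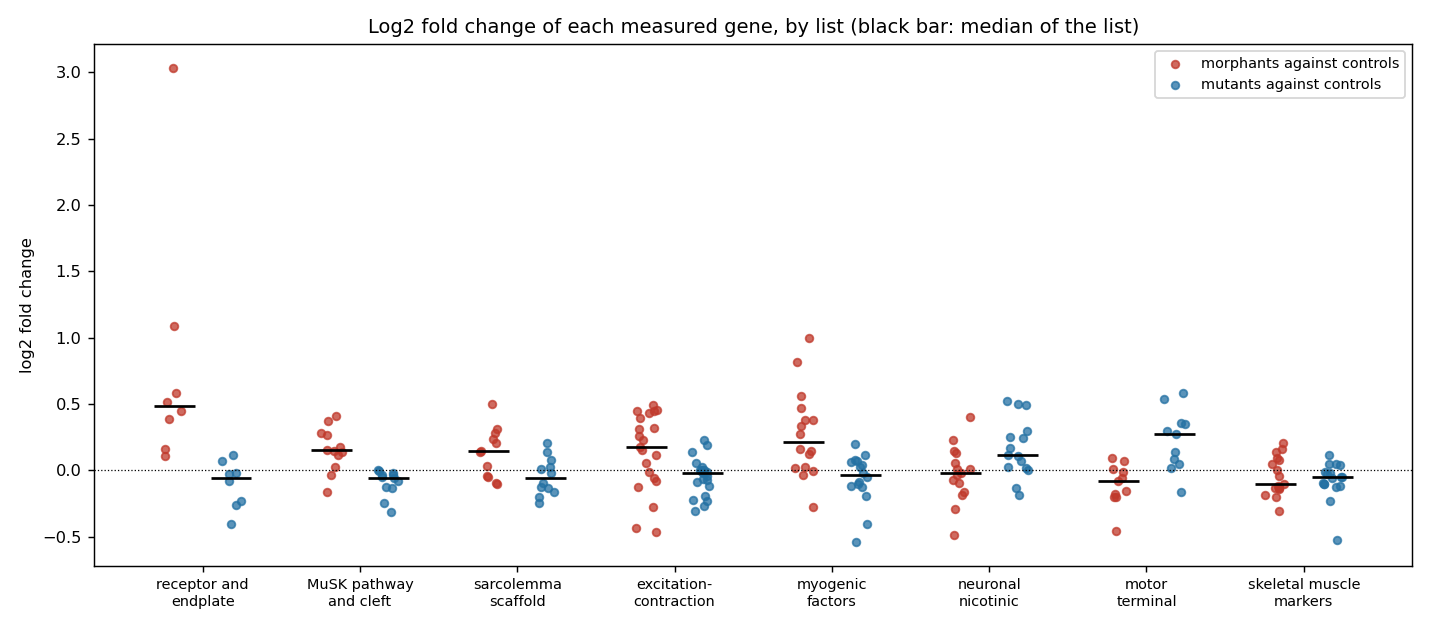
Log2 fold change (vertical axis) of every measured gene in 8 lists, with morphants against controls left of mutants against controls and a black bar at the median of the list. The receptor and endplate genes, *chrng* among them, have a median of 0.48 in morphants and -0.06 in mutants (0.45 and -0.08 without *chrng*). The skeletal muscle markers have medians of -0.10 and -0.05.

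Genes of the neuronal nicotinic receptors and of the cholinergic motor terminal were measured in the same pools. Of 15 neuronal nicotinic subunit genes, 0 passed in morphants against controls by limma (1 higher and 2 lower at an unadjusted p below 0.05) and 0 in mutants against controls (4 higher), and *chrna6* was lower in morphants than in mutants (-0.99, adjusted p = 0.0177), but not without morphant replicate 1 or 2 or mutant replicate 2 or 3 (up to 0.0645). Of 11 genes of the cholinergic motor terminal, 0 passed in morphants against controls (1 lower at an unadjusted p below 0.05) and 0 in mutants against controls (6 higher at an unadjusted p below 0.05). The first of these counts was 1 without morphant replicate 3 or mutant replicate 1, and the second was 2 without mutant replicate 1. Against mutants, 3 were lower in morphants, where 6.11% of all probe sets passed as lower and 7.50% as higher. The count was 1 without morphant replicate 1 or mutant replicate 2 or 3. In the same comparison 5 of 7 general neuron markers passed as lower (median -0.81) and 3 of 6 heart markers as higher (median 0.54), and their part in these values was not tested. The gene *snap25a* belongs both to these neuron markers and to the motor terminal list. In mutants against controls, 6 of the 7 neuron markers were likewise higher at an unadjusted p below 0.05 in limma (median 0.40), and 0 passed. A rise at that cutoff in mutants was thus not particular to the motor terminal list. *syt2a*, a calcium sensor of vesicle release, had 6.56, 6.52 and 6.88 in morphants and 7.47, 7.85 and 7.75 in mutants, between which the controls lay at 7.02 to 7.18. This gave -1.03 between morphants and mutants (standard error 0.13, adjusted p = 0.00111 from limma). *snap25b* (-0.74) and *chata*, which makes acetylcholine (-0.56), were also lower, calls that leaving out morphant replicate 1 or mutant replicate 2 or 3 ended for both, morphant replicate 3 for *snap25b* and morphant replicate 2 for *chata* (adjusted p up to 0.0900 and 0.107).

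The mean log2 signal of 17 skeletal muscle markers overlapped between the groups, at 11.14 to 11.23 in morphants, 11.05 to 11.26 in mutants and 11.12 to 11.28 in controls. The brightest of these markers lay close to the highest deposited value of 13.25, and how well such signals resolve a change was not tested. Of the 17 markers, 0 passed in morphants against controls by limma (0 higher and 1 lower at an unadjusted p below 0.05). Against mutants, 1 of the 17 passed as higher in morphants and 0 as lower, where 7.50% of all probe sets passed as higher. In that comparison the median of the markers was -0.03 and the largest change 0.42. When every array was shifted by this muscle level, a setting added after seeing the data, *chrnb1* and *chrnd* passed against controls beside *musk*, *rapsn* and *chrng*. Of 6 heart markers, *myl7* passed as higher in morphants than in controls (0.49, adjusted p = 0.0498), with all 6 changes positive and 4 of them past an unadjusted p of 0.05, and the mean of the list was 7.01 to 7.24 in morphants, 6.61 to 6.72 in mutants and 6.59 to 6.92 in controls. Of 7 neuron markers *sncb* passed as lower (-0.47, adjusted p = 0.0443), with all 7 changes negative and 3 of them past an unadjusted p of 0.05, and the mean was 8.71 to 9.17 in morphants, 9.42 to 9.72 in mutants and 9.07 to 9.29 in controls. Of 6 epidermis markers and 5 notochord and cartilage markers, 0 passed in morphants against controls by limma (1 and 1 lower and 0 and 1 higher at an unadjusted p below 0.05). Against mutants, 1 of the 6 epidermis markers passed as lower. Of the 5 notochord and cartilage markers, 1 passed as higher and 1 as lower against mutants. The heart mean was thus above all other arrays in morphants, the neuron mean was below all mutant arrays and overlapped the controls, and the part of these markers in the results was not tested.

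**Figure D4:**
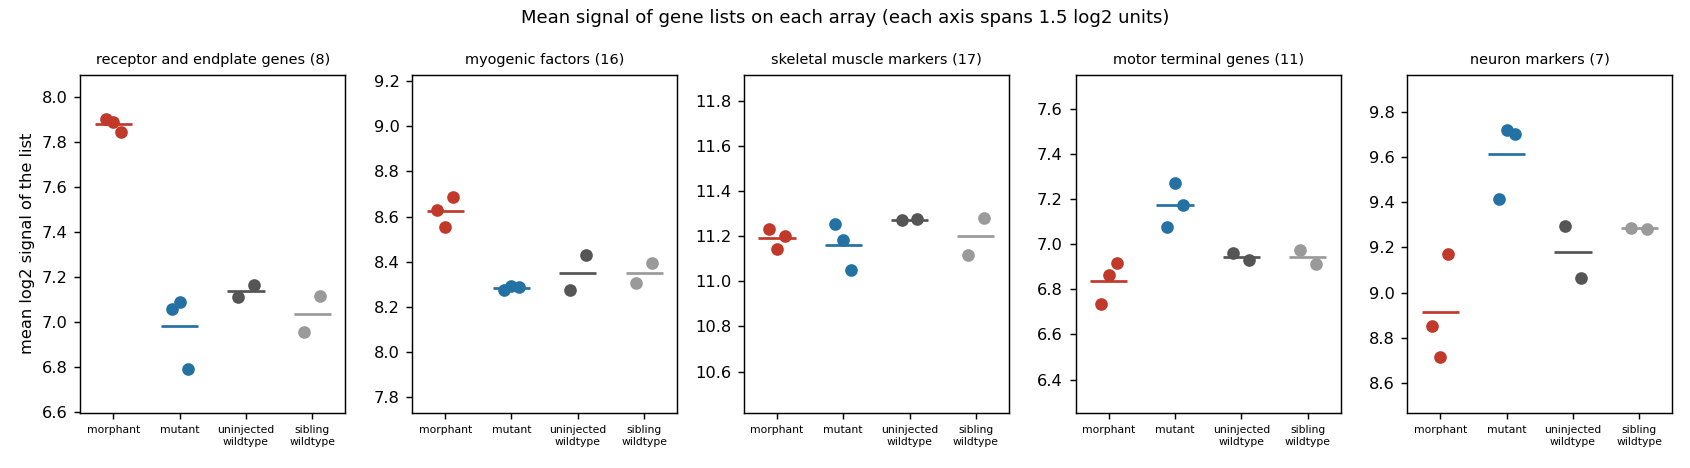
Mean log2 signal of 5 gene lists (vertical axes, each spanning 1.5 units) in morphants, mutants, uninjected wildtype and sibling wildtype, with 1 point per array and a bar at the group mean. The receptor and endplate genes lie at 7.84 to 7.90 in morphants and 6.79 to 7.17 in all others. Their mean includes *chrng*, which was known to rise in morphants when the set was chosen, and a mean without it was not computed. The skeletal muscle markers overlap, and the neuron markers are highest in mutants.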

How the data were processed

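Total RNA from pools of whole embryos was hybridized to 10 single-channel GeneChip Zebrafish Gene 1.0 ST arrays, with 100 ng of RNA per array. The deposited values are log2 signals. The methods name robust multi-array averaging with the oligo package, and the submitters' processing notes name GCRMA, both without a version. Which of them made the values was not settled here. Robust multi-array averaging corrects the background, equalizes the distributions of the arrays and summarizes each probe set. It can narrow large changes and compress dim signals. The values (1.39 to 13.25) were used as deposited, without further normalization or filter.

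limma 3.58.1 in R 4.3.3 fitted 1 mean each for morphants, mutants and controls over all 75212 probe sets (lmFit and eBayes, 7 residual and 3.13 prior degrees of freedom). Both kinds of wildtype were joined as controls, as in the methods. A second fit with 4 group means tested morphants over uninjected minus mutants over sibling wildtype. Tests were two-sided, the Benjamini-Hochberg adjustment covered every probe set of a comparison, and a gene passed at an adjusted p below 0.05. The study's rule adds a change of at least 2-fold. For counts at an unadjusted p below 0.05 the share of all probe sets was not computed, so these counts have no background beside them. The fit was tested on simulated data. Exact permutation tests used scipy 1.17.1. The number of arrays limits the precision.

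In the array annotation, 20806 probe sets had 1 symbol, 855 several and 53551 none, and the 8 measured genes kept their symbols in RefSeq through their gene identifiers. Named genes are the members and genes drawn from the 3 with the smallest adjusted p in each list and comparison. Not all of the latter are named. The genes *agrn*, *ache*, *dok7a*, *myl7* and *sncb* were chosen after their values were seen. The members and lists were chosen with earlier results of these data known. Alternatives were the 2-group test of the methods (an analysis of variance), limma on 2 groups, each wildtype kind alone, repeated quantile normalization, median centring, removal of dim probe sets, a test of those with 1 symbol only, a trended and robust prior, the 2-fold rule, a replicate block and each array left out. The muscle-marker shift and the single count of identical probe sets were added after the data were seen.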

Additional observations from a re-analysis of the deposited data

Results flagged for a closer look

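The change of *chrng* in morphants against uninjected wildtype exceeded that in mutants against sibling wildtype by 3.256 on the log2 scale. It was singled out because the changes in the morphants and in the mutants differed in the fit with 4 group means, and it is a description, since the gene was known to rise in morphants over mutants when it was chosen. The same difference for *musk* was 1.159 (standard error 0.18, adjusted p = 0.0314 from limma), and it was singled out for the same reason. All 3 morphant arrays were above both uninjected arrays in *musk*, while the mutant arrays overlapped the sibling arrays.

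Probe set 13084081 lies outside the rule for members because its annotation has 2 entries, both of which read *chrng* under different gene identifiers. It was singled out as a signal outside the main measurement. Its log2 signal was 7.64, 7.90 and 7.78 in morphants, 5.68, 5.40 and 5.68 in mutants, 5.48 and 5.26 in uninjected wildtype and 5.89 and 5.72 in sibling wildtype. Morphants exceeded controls by 2.19, less than the 3.04 of the *chrng* probe set, with all 3 morphant arrays above all others. On this probe set the control and mutant signals lay above the array medians of 4.92 to 4.96. The values are not independent of those of the *chrng* probe set, since both come from the same arrays.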

How the results depend on the processing

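In morphants against controls, where 3 of the 8 genes passed, *chrng* among them, 5 passed with only probe sets above the array median on 3 arrays, with only probe sets of 1 symbol and with the muscle-marker shift, and 2 to 5 with single arrays left out (5 without uninjected replicate 2); the first 2 of these test fewer probe sets, and the cause was not tested for the others. *musk* passed in every one of these settings. So did *chrng*, but its rise was in view when the set was chosen, and its passing is a description. In morphants against mutants, *chrng* is a description and is left out here. Of the other genes, *musk* alone passed in the 2-group test of the methods and with the 2-fold rule. That test lost *chrnd* (adjusted p = 0.0576) and *rapsn* (0.0610). With only probe sets of 1 symbol, *chrnb1* (adjusted p = 0.0495 from limma) and *chrnb1l* (0.0425) were gained. *musk*, *chrnd* and *rapsn* passed whichever array was left out. Of the genes of the pathway lists named as passing, only *myog* against controls and *dag1*, *myf5* and *myod1* against mutants kept their call in the 2-group test of the methods, in which *syt2a* against mutants had an adjusted p of 0.0586. For the difference of the changes against own wildtype, with *chrng* left out as a description, *musk* alone passed. It lost this call on leaving out any of 8 of the 10 arrays. The replicate numbers were taken from the titles. Deviations from the group means correlated at -0.10 to 0.22 between arrays of the same number and -0.22 to 0.10 between arrays of different numbers. In a group of 2 arrays the deviations are exact opposites, so the extremes of 0.22 and -0.22 mirror each other. Between morphants and mutants, with 3 arrays each, r was -0.097 to 0.028 at the same number and -0.096 to 0.094 at different numbers. These values do not show whether the numbers pair the samples. With the replicate number as a block, *musk* lost its call for the difference of the changes (adjusted p = 0.0703 from limma). No other call on the 8 genes changed. *scn4aa* in morphants against controls was lost (0.0714).

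Signs turned in mutants against controls alone, where no gene passed. *chrna1* became 0.0168 against uninjected wildtype alone, 0.0103 with repeated quantile normalization, 0.047 with the block and 0.0564 with the muscle-marker shift, and ran between -0.0693 and 0.0796 with single arrays left out. *chrnb1* became -0.0391 against uninjected wildtype alone. *chrnb1l* became 0.0304 against sibling wildtype alone, 0.1088 with the block and 0.0432 with the muscle-marker shift, and ran between -0.1741 and 0.2015 with single arrays left out. *chrne* ran between -0.1452 and 0.0015 with single arrays left out, and *chrng* became -0.0534 against sibling wildtype alone. Averaging all probe sets of a gene gave no new value, since each measured member had 1. Only 2 to 4 arrays per group, with 2 for each wildtype kind, limit what can be detected. The *chrng* signals of mutants and controls, under the array medians, leave small changes at that level unresolved.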

Other observations

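Over the 10 arrays, the gene with the pattern most like that of *chrng* was *ccng1* (Pearson's r = 0.996), followed by *mrpl48* (0.994), *ccdc86* (0.992), *isg20* (0.992) and *si:dkey-204l11.1* (0.991). For the other members the most similar genes were *nelfa* for *musk* (0.990), *slc37a4a* for *chrnd* (0.985), *ociad1* for *rapsn* (0.977), *wu:fj13e08* for *chrnb1l* (0.960), *map3k20b* for *chrnb1* (0.955), *hyal2a* for *chrna1* (0.931) and *pank4* for *chrne* (0.931). These correlations share the group means of the same arrays, were picked as the highest among all genes with a probe set of 1 symbol and are descriptions without a test. The ranges of the members over the arrays differed, with 3.44 on the log2 scale for *chrng*, 1.51 for *musk*, 1.23 for *chrnd* and 0.51 for *chrna1*, so that the narrow ones rest on small differences.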
